A study of Xenopus laevis with 45 samples.

Results

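The difference between the responses to the 2 antisense morpholinos against erythroferrone (ERFE) was measured in whole Xenopus laevis embryos at stage 41. For each gene it is the response to 10 ng of ERFE MO1 over 10 ng of standard control morpholino (cMO), minus the response to 20 ng of ERFE MO2 over 20 ng of cMO. The members are the 3 libraries of each of these 4 groups, chosen by the labelled injection and stage, which makes 12 of the 45 libraries of the series. In the study, embryos at the 8-cell stage received morpholino in the 4 vegetal blastomeres, were raised in 0.1x MBS and were collected at 3 tadpole stages, with uninjected embryos beside them. All 12 libraries used for the difference therefore come from injected embryos, and the controls carry the same amount of the control oligo. The dose goes with the oligo, since MO1 was given at 10 ng and MO2 at 20 ng throughout, so what belongs to the oligo and what belongs to its dose cannot be told apart. Injection of the vegetal blastomeres leaves the animal blastomeres without oligo when it is made, while RNA was taken from the whole embryo. A lower level in such bulk RNA cannot tell fewer cells of a type from less RNA per cell.

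Erythroferrone is a secreted protein, known in mammals as the hormone of red cell precursors that lowers the iron regulator hepcidin by binding bone morphogenetic proteins (BMPs). A morpholino is a stable antisense oligo that blocks translation or splicing of the transcript it pairs with, and each one also has its own set of unintended partners. Unequal effects of a pair of oligos against one transcript are commonly compared for that reason. The labels leave unsaid whether MO1 and MO2 block translation or splicing.

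Depth was 27606967 to 37102472 counts assigned to genes per library (median 32828954), with 35187 to 36061 genes detected. Levels are given as CPM (depth-scaled counts), relative to the adjusted library size, and 3 counts correspond to 0.0798 to 0.117 CPM in these libraries. Libraries with the same replicate number varied together, so the number was used as a block, and values are listed in the order of replicates 1, 2 and 3. Tests are edgeR quasi-likelihood (QL) tests over 30767 genes, with Benjamini-Hochberg adjustment, and a gene is called at an adjusted p under 0.05. Log2 values carry the standard error (SE) of the fit, and CPM means the standard deviation (SD, n = 3 libraries per group). Separate clutches are not named in the labels, and the p-values therefore stand for the variation among these libraries, part of which may be technical. Markers of the tissues of a tadpole were read in every library, with liver genes summing to 8080 to 12748 CPM and neuron and glia genes to 2180.4 to 2816 CPM.

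The targeted transcript did not separate the 2 oligos. ERFE is listed as fam132b.L and measured 2.39, 5.59 and 7.18 CPM with MO1, against 4.42, 8.66 and 8.88 CPM with 10 ng cMO. With MO2 it measured 2.32, 5.24 and 4.05 CPM, against 4.54, 7.93 and 8.52 CPM with 20 ng cMO. It was lower than its control in every replicate number with each oligo, while the groups overlapped across numbers. The log2 response of fam132b.L was -0.57 to MO1 (edgeR QL adjusted p = 0.029) and -0.87 to MO2 (adjusted p = 0.008). The difference between the 2 responses of fam132b.L was 0.29 ± 0.22 (adjusted p = 0.61), with a 95% interval of -0.18 to 0.77. Transcript levels need not follow a block of translation, so they do not measure how far ERFE protein fell with either oligo.

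Most of what each oligo changed did not pass the test of the difference between them. MO1 changed 3771 genes (12.3%), of which 1608 rose and 2163 fell, and MO2 changed 1557 genes (5.06%), of which 598 rose and 959 fell. Of the 765 genes that both changed in the same direction, which is 20.3% of the genes called with MO1 and 49.1% of those called with MO2, 399 had the larger absolute response to MO1 and 366 to MO2. A difference between the responses was called for 77 genes (0.25% of those tested), 61 of them (0.198%) with the higher response to MO1 and 16 (0.052%) with the higher response to MO2. At an unadjusted p under 0.05 there were 4038. The called differences ran from 0.50 to 5.37 log2 units in absolute size, with a median of 0.85. Over all genes tested the signed difference had a median of -0.003, which does not measure its usual size. For 3552 of the 4555 genes called with either oligo (78.0%), the 95% interval of the difference lay within 1 log2 unit of 0 on either side. That bound is wide, since the median absolute size of a called response was 0.48 with MO1 and 0.61 with MO2. A gene changed by 1 oligo alone can lie within it, so this share does not show that the responses were alike. For 2058 of the 4555 (45.2%) the 95% interval of the difference excluded 0, against 13.1% of all genes tested. The 4555 were picked by responses that make up the difference, in the same fit, so part of this excess can come from that choice.

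**Figure D1:**
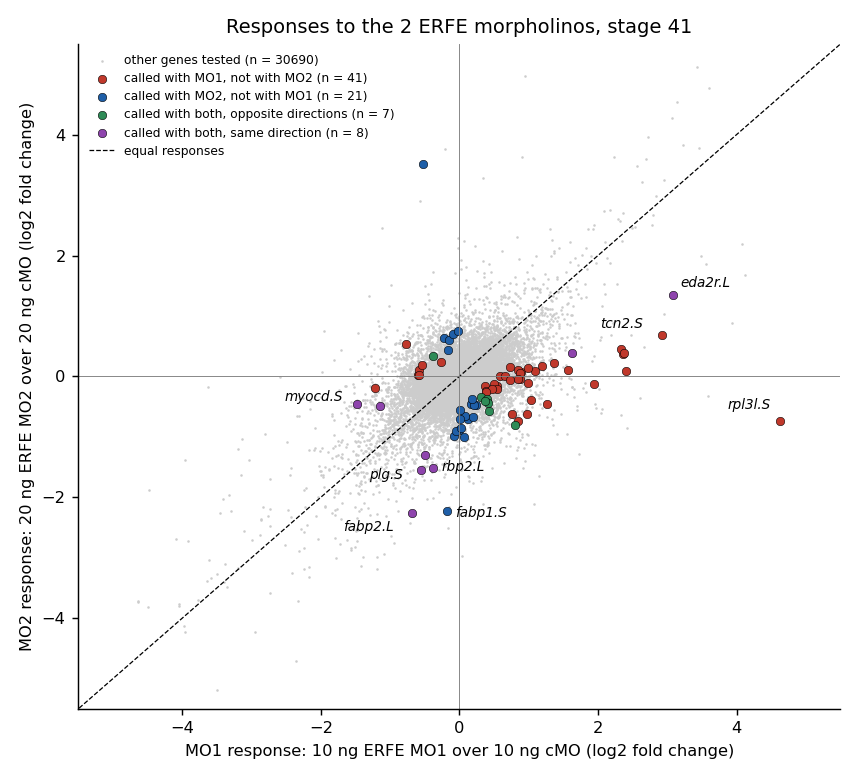
Log2 response to 10 ng ERFE MO1 over 10 ng cMO (x axis) against log2 response to 20 ng ERFE MO2 over 20 ng cMO (y axis) for the 30767 genes tested at stage 41. Grey points are genes without a called difference, coloured points the 77 genes with one, by which oligo's own response was called, and the dashed line marks equal responses. 2 genes lie outside the plotted range. The 41 genes called with MO1 and not with MO2 lie along the x axis, mostly to the right of 0, and the 21 called with MO2 and not with MO1 lie along the y axis, mostly below 0.

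The 77 genes fell into 4 groups by the oligo whose own response was called. There were 41 called with MO1 and not with MO2, of which 34 rose and 7 fell with MO1. Another 21 were called with MO2 and not with MO1, of which 6 rose and 15 fell with MO2. A further 7 were called with both in opposite directions, and 8 with both in the same direction but to an unequal extent. All 77 were also called between MO1 and MO2 libraries directly, where 1397 genes passed (4.54%), 774 higher with MO1 (2.52%) and 623 lower (2.02%). The difference is this direct contrast minus that between the controls, from the same libraries, so these calls are no separate support. Between 10 ng and 20 ng cMO, 0 genes passed in edgeR (0%), with 1127 at an unadjusted p under 0.05 and 1 called by DESeq2. Of the 77 genes, 11 were among those 1127, out of 30767 tested.

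The number called depends on the block and on single libraries. Without the replicate block 0 genes were called in edgeR, with a smallest adjusted p of 0.081, and 60 of the 77 had an unadjusted p under 0.05. Leaving out MO1 library 1, 2 or 3 left 33, 76 or 39 calls, and leaving out a 10 ng cMO library left 12, 8 or 15. Without MO2 library 1, 2 or 3 the count was 16, 35 or 41, and without a 20 ng cMO library it was 12, 8 or 19. With all 4 libraries of replicate number 1, 2 or 3 left out it was 4, 6 or 0. All 77 differences kept their sign under each of the 23 alternative settings run. Kept signs say little here, since the settings reuse the libraries that picked the genes. In the main data all 77 had the same sign in replicates 1, 2 and 3. The call held in each of the 12 fits that left out a single library for 6 genes, among them tcn2.S, fabp2.L, plg.S, LOC100490020.L and LOC100492058.L, and in none of those fits for 14 genes. Just inside the threshold lay entpd2.L and uroc1.L, at adjusted p = 0.0494 and 0.0499, and just outside it tnni1.2.S at 0.0537.

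Genes of the response to DNA damage and cell stress, which acts through cell cycle arrest, repair and cell death, rose in larger number with MO1 than with MO2. Of 61 tested members of a list of such genes, 25 rose and 2 fell with MO1 (41.0% and 3.28%, against 5.23% and 7.03% of all genes), while 6 rose and 3 fell with MO2 (9.84% and 4.92%, against 1.94% and 3.12%). All 6 that rose with MO2 rose with MO1 as well. The difference was called for 3 members, mdm2.L, mdm2.S and eda2r.L, each higher with MO1 (4.92%, against 0.198% of all genes), and the median difference of the list was 0.15. Without the replicate block 2 members rose with MO1 and 0 with MO2, and no difference was called.

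Both copies of mdm2, which encodes a ubiquitin ligase, rose with MO1 and did not pass the test with MO2. In MO1 libraries mdm2.L had 102, 54.1 and 75.6 CPM, against 40.5, 32.8 and 33.4 CPM with 10 ng cMO. In MO2 libraries it had 40.4, 34.1 and 33.4 CPM, against 38.8, 32.5 and 30.7 CPM with 20 ng cMO. Every MO1 library exceeded the other 9, and MO2 libraries and controls overlapped. The difference was 1.01 ± 0.16 for mdm2.L (edgeR QL adjusted p = 0.031) and 0.74 ± 0.11 for mdm2.S (adjusted p = 0.03), and each call held in 2 of the 12 fits without a single library.

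The receptor gene eda2r, a member of the tumour necrosis factor receptor family, rose with both oligos. It measured 101, 64.4 and 78.5 CPM of eda2r.L with MO1, against 13.2, 8.22 and 7.5 CPM with 10 ng cMO. It measured 18.5, 18.9 and 23.3 CPM with MO2, against 12.48, 7.33 and 5.15 CPM with 20 ng cMO. No MO2 library overlapped a control, and every MO1 library was above every MO2 library. The log2 response was 3.09 to MO1 and 1.35 to MO2, with a difference of 1.73 ± 0.29 (edgeR QL adjusted p = 0.037, held in 3 of 12 fits without a single library).

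Other members of the list did not pass the test of the difference. Chosen after their values were seen, cdkn1a.L, which encodes the cell cycle inhibitor p21, had a difference of 0.93 ± 0.19 (edgeR QL adjusted p = 0.066), and ccng1.S, cyclin G, 0.72 ± 0.17 (adjusted p = 0.11). Among the 61 members, 41 had a difference above 0 and 21 an unadjusted p under 0.05 (34.4%, against 13.1% of all genes). The 3 calls became 0 without MO1 library 1 or 3, MO2 library 1, any 10 ng cMO library, or 20 ng cMO library 1 or 2, and 5 without MO1 library 2. Leaving out MO2 library 3 or 20 ng cMO library 3 left 1, and leaving out MO2 library 2 left 2. The count that rose with MO1 stayed between 18 and 25 in those 12 fits, and the count that rose with MO2 between 2 and 7, the lowest without MO2 library 2 or 3 or 20 ng cMO library 1 or 2. It was 4 without MO1 library 3 or any 10 ng cMO library. The summed level of the list was 1938 to 2502 CPM in MO1 libraries, 1524 to 1606 CPM with 10 ng cMO, 1673 to 1737 CPM with MO2 and 1513 to 1621 CPM with 20 ng cMO.

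**Figure D2:**
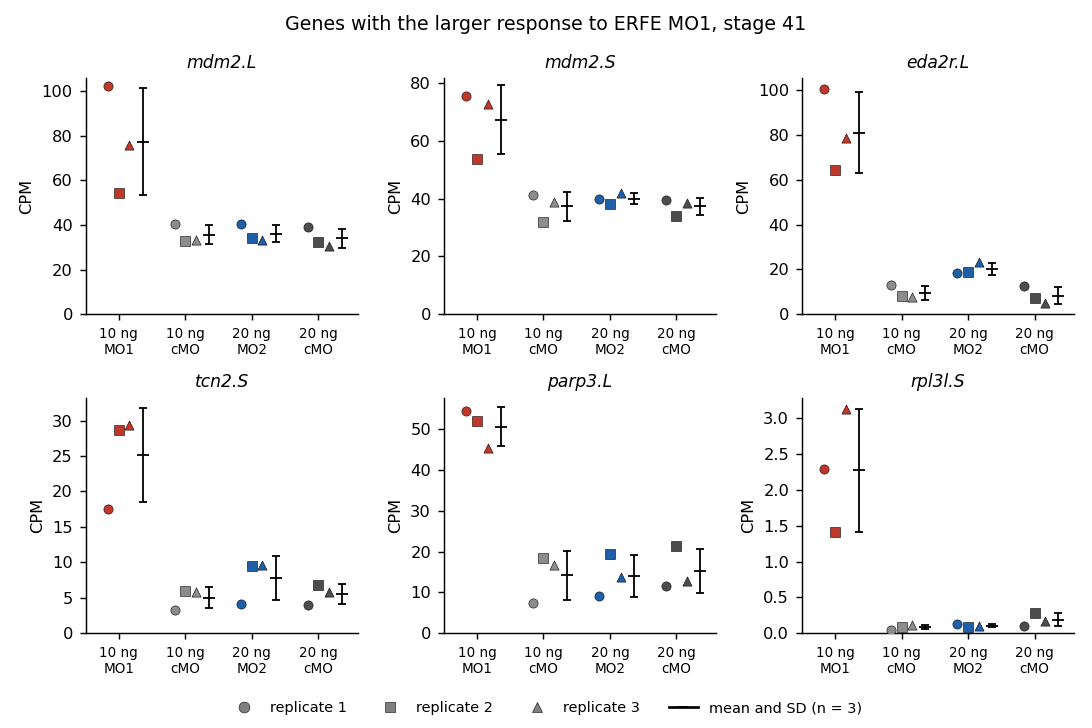
Levels in CPM of 6 genes with the larger response to MO1 in each of the 12 libraries at stage 41, by group, with the mean and SD of 3 libraries beside the points and a symbol for each replicate number. The 3 MO1 libraries lie above all other libraries in each panel. MO2 libraries lie near the control libraries except for eda2r.L, where all 3 are above every control, and tcn2.S, where libraries 2 and 3 are.

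Outside that list, genes that rose with MO1 and were not called with MO2 included several with differences over 1 log2 unit. The largest difference of the 77 was that of rpl3l.S, a ribosomal protein gene of heart and skeletal muscle in mammals, with 2.28, 1.41 and 3.12 CPM with MO1 and 0.0532, 0.0938 and 0.12 CPM with 10 ng cMO. It had 0.131, 0.0924 and 0.098 CPM with MO2 and 0.108, 0.283 and 0.174 CPM with 20 ng cMO. Over 3 libraries that is 225 counts with MO1, 9 with 10 ng cMO, 10 with MO2 and 18 with 20 ng cMO, so all groups but MO1 were near the floor. The difference of 5.37 ± 0.74 (edgeR QL adjusted p = 0.021, 95% interval 3.76 to 6.97) rests on these low counts. Reads of rpl3l.S may also be shared with the closely related rpl3 genes. It was the 1 of 106 tested skeletal and heart muscle genes with a called difference in edgeR (0.943%, against 0.25% of all genes), against 5 in DESeq2. At an unadjusted p under 0.05 there were 27 (25.5%, against 13.1% of all genes). The difference was below 0 for 56 of the 106 and above 0 for 50, and the median of that list was -0.02. The second largest difference of the 77, at -4.05, belonged to a gene without a symbol that rose with MO2 by 3.52 log2 units and was not called with MO1.

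The gene of transcobalamin, tcn2, which carries vitamin B12 in blood, had 17.6, 28.6 and 29.4 CPM of tcn2.S with MO1, against 3.3, 6.0 and 5.85 CPM with 10 ng cMO. It had 4.18, 9.49 and 9.63 CPM with MO2, against 3.97, 6.8 and 5.82 CPM with 20 ng cMO. MO1 libraries did not overlap any others. MO2 library 1 lay within the range of the controls, and MO2 libraries 2 and 3 lay above all of them. The response of tcn2.S to MO2 was 0.45, just outside the threshold (edgeR QL adjusted p = 0.052). The difference was 1.88 ± 0.17 (edgeR QL adjusted p = 0.0014), the smallest p of all genes together with fabp2.L, and its L copy had a difference of -0.02 ± 0.20 (tcn2.L, adjusted p = 0.98).

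The DNA repair gene parp3, an ADP-ribosyltransferase, had 54.5, 51.9 and 45.3 CPM of parp3.L with MO1, against 7.42, 18.4 and 16.6 CPM with 10 ng cMO. With MO2 it had 9.02, 19.3 and 13.8 CPM, against 11.5, 21.4 and 12.8 CPM with 20 ng cMO. It was higher in all 3 MO1 libraries than anywhere else, and its difference was 2.06 ± 0.32 (edgeR QL adjusted p = 0.031, held in 5 of 12 fits without a single library). The macrophage adhesion receptor siglec1.L averaged 5.39 ± 1.55 CPM with MO1, 1.03 ± 0.393 CPM with 10 ng cMO, 1.11 ± 0.713 CPM with MO2 and 1.01 ± 0.394 CPM with 20 ng cMO, a difference of 2.32 ± 0.35 (adjusted p = 0.03, held in 4). Its S copy, with a mean of 1.76 CPM over the 4 groups, went the other way. The response of siglec1.S to MO1 was -1.23 (edgeR QL adjusted p = 0.010), and its difference was -0.59 ± 0.36 (adjusted p = 0.53). None of the 67 tested leukocyte and myeloid genes of a list, which does not hold siglec1, had a called difference in edgeR. At an unadjusted p under 0.05 there were 9 (13.4%, against 13.1% of all genes), and DESeq2 called 1. The summed level of the list was 859 to 1302 CPM with MO1, 733 to 1283 CPM with 10 ng cMO, 900.4 to 1392 CPM with MO2 and 921 to 1207 CPM with 20 ng cMO.

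Smaller MO1 responses of the same kind belonged to dscaml1.L, a neuronal cell adhesion molecule, man2a2.S, a Golgi mannosidase of N-glycan maturation, and fam189a2.S. The MO1 responses were 1.36, 0.99 and 1.19 log2 units, and the MO2 responses 0.22, -0.10 and 0.17. None of the MO2 responses was called. The differences were 1.14 ± 0.15, 1.09 ± 0.14 and 1.02 ± 0.18 (edgeR QL adjusted p = 0.013, 0.012 and 0.0462), and the MO1 libraries of all 3 genes lay above every other library. The other copies, dscaml1.S, man2a2.L and fam189a2.L, had MO1 responses of -0.15, -0.07 and 0.27, none called. Their differences were 0.05 ± 0.17, -0.11 ± 0.15 and 0.66 ± 0.13 (edgeR QL adjusted p = 0.93, 0.80 and 0.060). The response of fam189a2.L to MO2, -0.39, was called (adjusted p = 0.035). Of the 41 genes called with MO1 alone, 11 have no symbol in the files and are not described further.

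Many cell division genes fell with MO1, and none passed the test as lower with MO2. Of 83 tested genes of DNA replication and mitosis, 33 fell and 3 rose with MO1 (39.8% and 3.61%), while 0 fell and 2 rose with MO2 (0% and 2.41%), in the same edgeR QL fit, which has 7.03% and 5.23% of all genes falling and rising with MO1, and 3.12% and 1.94% with MO2. At an unadjusted p under 0.05, 6 of the 83 were lower and 8 higher with MO2, and DESeq2 called 0 lower and 2 higher. Without the replicate block 0 members fell and 1 rose with MO1. The difference was below 0 for 76 of the 83 and reached an unadjusted p under 0.05 for 43 (51.8%, against 13.1% of all genes tested). The median difference of the list was -0.33. After adjustment over all genes the difference was called for 4 members, 3 of them lower (against 0.052% of all genes) and 1 higher (against 0.198%). The summed level was 2247 to 2360 CPM in MO1 libraries, below the 2495 to 2850 CPM with 10 ng cMO, the 2610 to 2899 CPM with MO2 and the 2494 to 2865 CPM with 20 ng cMO.

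The proliferation marker mki67.L had 35.1, 20.1 and 26.6 CPM with MO1, against 53.7, 33.2 and 36 CPM with 10 ng cMO. It had 47.6, 29.4 and 36.1 CPM with MO2, against 50.2, 28.8 and 32.7 CPM with 20 ng cMO. Replicate 1 was the highest in every group and the groups overlapped, while the MO1 library was the lowest of the 4 within each replicate number. The difference was -0.62 ± 0.10 for mki67.L and -0.61 ± 0.10 for mcm5.S, a subunit of the helicase that opens replication origins (edgeR QL adjusted p = 0.031 for both). The mean of mcm5.S was 21.9 ± 4.29 CPM with MO1, 32.8 ± 4.83 CPM with 10 ng cMO, 30.4 ± 4.6 CPM with MO2 and 30.0 ± 5.65 CPM with 20 ng cMO.

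The other 2 called members of that list did something else. The origin licensing factor cdc6 rose with MO2, with 22.5, 28.7 and 24.6 CPM of cdc6.L with MO1, 26.4, 30.3 and 24.3 CPM with 10 ng cMO, 41.7, 40.3 and 34.5 CPM with MO2 and 23.7, 24.3 and 23.5 CPM with 20 ng cMO. All 3 MO2 libraries were above the other 9, and the difference was -0.80 ± 0.12 (edgeR QL adjusted p = 0.03). The phosphatase cdc25c, which triggers entry into mitosis, rose with MO1, with 38.1, 29 and 34.4 CPM of cdc25c.L with MO1, 18.7, 18.1 and 17.9 CPM with 10 ng cMO, 17.6, 19.7 and 18 CPM with MO2 and 18.2, 18.3 and 15.9 CPM with 20 ng cMO. Its difference was 0.81 ± 0.14 (adjusted p = 0.037), against -0.14 ± 0.12 for cdc25c.S (adjusted p = 0.67). Calls of a lower difference numbered 3 in this list, and between 0 and 3 when a single library was left out, with 0 without MO2 library 1, any 10 ng cMO library, or 20 ng cMO library 1 or 3 and 1 without MO1 library 1 or 2, MO2 library 2 or 3 or 20 ng cMO library 2. The count that fell with MO1 ranged from 16 to 34 in those fits, with 16, 20 and 17 without 10 ng cMO library 1, 2 and 3 and 21 without MO1 library 1.

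Outside the cell cycle, 6 named genes fell with MO1 but not with MO2. They were slc34a3.L, a kidney phosphate transporter, hkdc1.L, a hexokinase relative, nol11.S, a factor of ribosome biogenesis, pdia4.L, a protein-folding enzyme of the endoplasmic reticulum, nmrk2.L, a nicotinamide riboside kinase, and gatm.L, described with the opposite responses. In slc34a3.L the levels were 8.95, 15.7 and 11.8 CPM with MO1, 17, 20.1 and 24.7 CPM with 10 ng cMO, 23.8, 23.8 and 22.6 CPM with MO2 and 17.3, 15.3 and 15.5 CPM with 20 ng cMO. MO1 libraries were below their controls and MO2 libraries above theirs, and the MO2 response alone was not called. The differences were -1.31 ± 0.23 for slc34a3.L, -1.02 ± 0.17 for hkdc1.L, -0.72 ± 0.12 for nol11.S, -0.70 ± 0.12 for pdia4.L and -0.50 ± 0.09 for nmrk2.L (edgeR QL adjusted p = 0.038, 0.033, 0.031, 0.036 and 0.0490). The call of pdia4.L held in 0 of the 12 fits without a single library, and those of slc34a3.L and hkdc1.L in 1.

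The genes fabp2.L, rbp2.L, fabp1.S, plg.S and serpina1.L of the gut and liver had a lower response to MO2 than to MO1. The intestinal fatty acid binding protein fabp2.L had 48.4, 89.3 and 103 CPM with MO1, against 80.4, 142 and 159.9 CPM with 10 ng cMO. It had 18.8, 25.6 and 33.4 CPM with MO2, against 75.2, 121 and 189.9 CPM with 20 ng cMO. MO2 libraries lay below all 9 others, and MO1 libraries overlapped the controls while each was below its own replicate number. The log2 response of fabp2.L was -0.68 to MO1 and -2.26 to MO2, both called, with a difference of 1.58 ± 0.14 (edgeR QL adjusted p = 0.0014). Its S copy fell with both, by 1.45 and 1.94 log2 units, and the difference of 0.49 ± 0.25 in fabp2.S was not called (adjusted p = 0.43).

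The intestinal retinol binding protein rbp2.L had 27.3, 40.4 and 38.9 CPM with MO1, against 45.9, 55.5 and 37.5 CPM with 10 ng cMO. It had 13.9, 16.7 and 14.9 CPM with MO2, against 40.5, 50.5 and 40.0 CPM with 20 ng cMO. The liver and gut fatty acid binding protein fabp1.S had 2.9, 8.56 and 9.7 CPM with MO1, 4.57, 8.63 and 9.77 CPM with 10 ng cMO, 1.41, 1.79 and 1.63 CPM with MO2 and 4.7, 7.33 and 11.3 CPM with 20 ng cMO. MO2 libraries were the 3 lowest for both genes. The differences were 1.14 ± 0.16 for rbp2.L and 2.04 ± 0.30 for fabp1.S (edgeR QL adjusted p = 0.024 and 0.028), and fabp1.S was not called with MO1 (log2 response -0.19, adjusted p = 0.59). The calls held in 6 and 3 of the 12 fits without a single library. The L copy of fabp1, with a mean of 21.2 CPM over the 4 groups, fell with both oligos. Responses of fabp1.L were -0.93 to MO1 and -1.30 to MO2 (edgeR QL adjusted p = 0.023 and 0.0093). Its difference of 0.37 ± 0.33 was not called (adjusted p = 0.69).

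**Figure D3:**
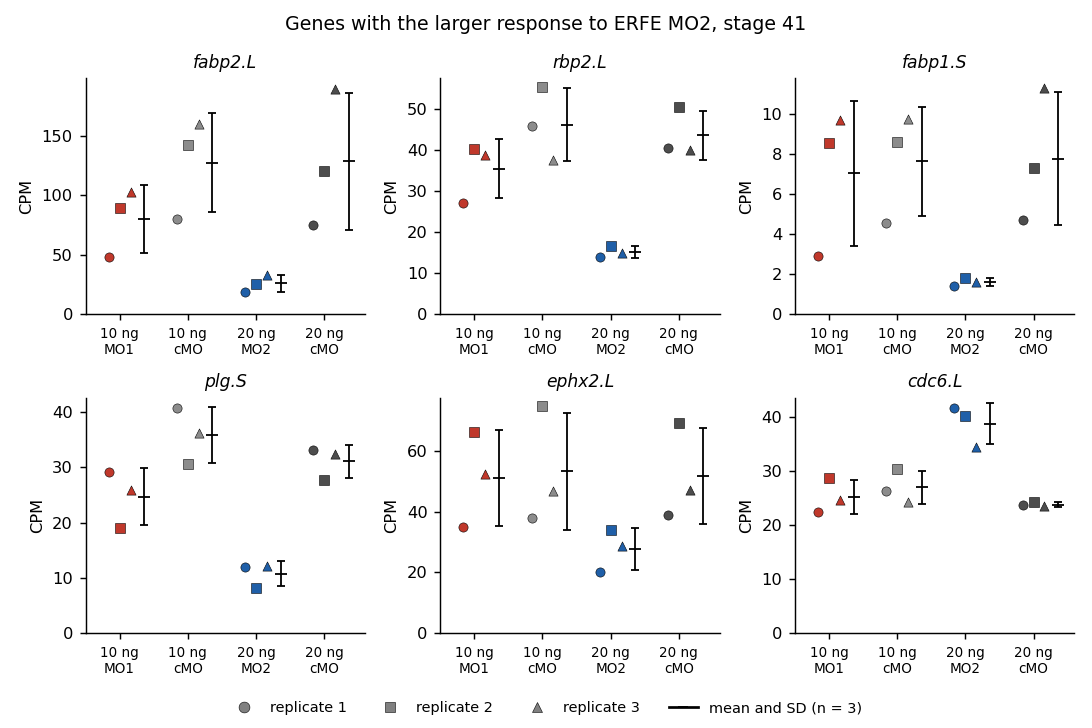
Levels in CPM of 6 genes with the larger response to MO2 in each of the 12 libraries at stage 41, drawn with the same symbols, means and SDs as the plot of MO1 genes. MO2 libraries are the 3 lowest in the panels of fabp2.L, rbp2.L, fabp1.S, plg.S and ephx2.L and the 3 highest in that of cdc6.L.

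Among the plasma proteins made by the liver, plasminogen and antitrypsin fell with both oligos and further with MO2. Plasminogen, the precursor of the enzyme that dissolves clots, had 29.2, 19 and 25.9 CPM of plg.S with MO1, against 40.8, 30.5 and 36.3 CPM with 10 ng cMO. It had 12, 8.13 and 12.2 CPM with MO2, against 33.1, 27.7 and 32.5 CPM with 20 ng cMO. The 4 groups separated into MO2 lowest, then MO1, then the 2 controls, with a single overlap between MO1 library 1 and 20 ng cMO library 2. The log2 response was -0.55 to MO1 and -1.54 to MO2, both called, with a difference of 1.0 ± 0.12 (edgeR QL adjusted p = 0.011). Antitrypsin, the protease inhibitor encoded by serpina1.L, responded by -0.50 and -1.29, a difference of 0.80 ± 0.14 (adjusted p = 0.037), and serpina1.S by -0.49 and -1.50, a difference of 1.01 ± 0.21 that was not called (adjusted p = 0.065).

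Prothrombin rose with MO1 and did not pass the test with MO2. Its gene f2.S had 55.6, 98.9 and 93 CPM with MO1, against 38.5, 72 and 59.7 CPM with 10 ng cMO. It had 30.4, 49.6 and 55.2 CPM with MO2, against 37.3, 59.9 and 58.6 CPM with 20 ng cMO. Within each replicate number the MO1 library was the highest and the MO2 library the lowest, and replicate 1 was low throughout, so that the groups overlapped. The response of f2.S to MO1 was 0.54 (edgeR QL adjusted p = 0.0011) and that to MO2 -0.22 (adjusted p = 0.13), a difference of 0.76 ± 0.11 (adjusted p = 0.024).

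About as many liver genes fell with MO1 as with MO2, while the median response of the list was -0.16 to MO1 and -0.31 to MO2. Of 70 tested members, 23 fell and 6 rose with MO1 (32.9% and 8.57%), and 25 fell and 2 rose with MO2 (35.7% and 2.86%), against 7.03% and 5.23% of all genes with MO1 and 3.12% and 1.94% with MO2. Of these, 22 were called the same way with both. Without the replicate block 5 fell with MO1 and 2 with MO2, and no difference was called. An unadjusted p under 0.05 for the difference was reached by 22 of the 70 members (31.4%, against 13.1% of all genes). The difference was called for 5 members, plg.S, serpina1.L, f2.S, fabp1.S and apoh.L, each higher with MO1 than with MO2 (7.14%, against 0.198% of all genes), and the list's median difference was 0.15. It was called for 4 without MO1 library 1 or 2, for 3 without MO2 library 3, for 2 without MO1 library 3, MO2 library 1 or 2, 10 ng cMO library 2 or 20 ng cMO library 3, and for 1 without any other single library. Summed levels were 9878 to 11654 CPM with MO1, 11127 to 12748 CPM with 10 ng cMO, 8080 to 10004 CPM with MO2 and 11241 to 12247 CPM with 20 ng cMO. Among 54 tested genes of stomach, intestine and lung, 23 fell and 6 rose with MO1 (42.6% and 11.1%), 20 fell and 3 rose with MO2 (37.0% and 5.56%), 21 were called the same way with both, and fabp2.L was the 1 member with a called difference. This 1 call is 1.85% of the 54, against 0.25% of all genes. An unadjusted p under 0.05 was reached by 13 of the 54 (24.1%, against 13.1% of all genes). The difference was above 0 for 35 of the 54 and below 0 for 19. Members with a lower response to MO1 included cdx1, a homeobox regulator of the intestine, and reg4.S, chosen after their values were seen. The response of cdx1.L was -1.54 to MO1 (edgeR QL adjusted p = 7.9e-04) and -0.13 to MO2 (adjusted p = 0.77). The differences were -1.41 ± 0.28 for cdx1.L, -0.92 ± 0.22 for cdx1.S and -1.36 ± 0.40 for reg4.S, none of which passed (edgeR QL adjusted p = 0.062, 0.1 and 0.18). Without the block none of these 54 was called in either response or in the difference.

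Several enzymes outside these lists fell with MO2 and not with MO1. The soluble epoxide hydrolase ephx2.L had 34.8, 66.2 and 52.2 CPM with MO1, 38, 74.7 and 46.9 CPM with 10 ng cMO, 20.1, 33.9 and 28.8 CPM with MO2 and 38.9, 69.2 and 47 CPM with 20 ng cMO. MO1 libraries followed their controls, and the MO2 libraries were the lowest of their replicate number. The difference was 0.85 ± 0.12 for ephx2.L, 0.87 ± 0.16 for sult2a1.L, a steroid sulfotransferase, and 0.82 ± 0.11 for txk.L, a Tec family kinase (edgeR QL adjusted p = 0.023, 0.0462 and 0.021). Responses to MO1 were -0.05, 0.02 and 0.12 and those to MO2 -0.90, -0.85 and -0.70 log2 units.

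Few genes rose with MO2 alone. Besides cdc6.L, the named ones were the zinc transporter slc30a2.L, the cadherin cdh26.S, the urocanate hydratase gene uroc1.L, an enzyme of histidine breakdown, and MGC145260.S. Levels of cdh26.S were 42.3, 35.3 and 32.5 CPM with MO1, 49.3, 35.3 and 29.1 CPM with 10 ng cMO, 67.8, 59.8 and 42.3 CPM with MO2 and 43.4, 29.3 and 27.9 CPM with 20 ng cMO. The MO2 library was the highest of each replicate number for this gene. The differences, MO1 minus MO2, were -0.86 ± 0.15 for slc30a2.L, -0.78 ± 0.13 for cdh26.S, -0.76 ± 0.14 for uroc1.L and -0.59 ± 0.10 for MGC145260.S (edgeR QL adjusted p = 0.045, 0.035, 0.0499 and 0.035). Part of that of uroc1.L lay between the controls. They averaged 26.8 ± 1.66 CPM with 10 ng cMO and 22.4 ± 2.06 CPM with 20 ng cMO (edgeR QL unadjusted p = 0.022).

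A set of 7 genes moved in opposite directions with the 2 oligos, each response called. Creatine synthesis begins with the enzyme encoded by gatm, and gatm.L had 53.8, 59.9 and 46.5 CPM with MO1, against 65.1, 77.6 and 64.6 CPM with 10 ng cMO. It had 88.5, 99.1 and 76.3 CPM with MO2, against 71.1, 75.5 and 62.7 CPM with 20 ng cMO. It fell in all 3 replicate numbers with MO1 and rose in all 3 with MO2, the 1 gene of the 7 in that direction. Its response was -0.37 to MO1 and 0.33 to MO2, a difference of -0.71 ± 0.09 (edgeR QL adjusted p = 0.012, held in 10 of 12 fits without a single library).

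The other 6 rose with MO1 and fell with MO2. They were oit3.S, entpd2.L, an enzyme that breaks down extracellular nucleotides, apoh.L, the plasma protein beta-2-glycoprotein I, pmp2.S, a fatty acid binding protein of myelin in mammals, serpinh1.S, the collagen chaperone, and 1 gene without a symbol. Levels of oit3.S were 3.47, 3.95 and 6.04 CPM with MO1, 2.13, 2.47 and 3.06 CPM with 10 ng cMO, 1.41, 1.82 and 1.63 CPM with MO2 and 2.32, 2.48 and 3.81 CPM with 20 ng cMO. Every MO2 library of oit3.S was below every other library. The differences were 1.60 ± 0.24 for oit3.S, 1.0 ± 0.18 for entpd2.L, 0.84 ± 0.14 for apoh.L, 0.77 ± 0.12 for pmp2.S and 0.65 ± 0.09 for serpinh1.S (edgeR QL adjusted p = 0.03, 0.0494, 0.037, 0.031 and 0.024). Part of that of entpd2.L lay between the controls, at 88.2 ± 6.13 CPM with 10 ng cMO and 114 ± 22.2 CPM with 20 ng cMO (edgeR QL unadjusted p = 0.014). Among the other copies of these genes, oit3.L had responses of 0.96 to MO1 and -0.39 to MO2. Those of entpd2.S were 0.36 and 0.11, of serpinh1.L 0.28 and 0.13, and of pmp2.L -0.40 and -0.55.

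Of the 8 genes called in the same direction with both, 2 rose, eda2r.L among them, and 6 fell. Besides fabp2.L, rbp2.L, plg.S and serpina1.L, which fell further with MO2, these included myocd.S and eva1b.L, which fell further with MO1. Myocardin, a coactivator of heart and smooth muscle genes, had 3.79, 4.26 and 7.09 CPM of myocd.S with MO1, 11, 14 and 16.5 CPM with 10 ng cMO, 6.96, 9.18 and 13.3 CPM with MO2 and 11.6, 12.1 and 15.8 CPM with 20 ng cMO. MO1 libraries did not overlap their controls, and MO2 libraries overlapped theirs across replicate numbers. Its response was -1.48 to MO1 and -0.46 to MO2, a difference of -1.02 ± 0.17 (edgeR QL adjusted p = 0.033), and that of eva1b.L -0.65 ± 0.12 (adjusted p = 0.045).

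Most sterol synthesis genes rose with both oligos, and none had a called difference. Of 54 tested genes of sterol synthesis and its SREBP regulators, 38 rose and 1 fell with MO1 (70.4% and 1.85%, against 5.23% and 7.03% of all genes), 31 rose and 0 fell with MO2 (57.4% and 0%, against 1.94% and 3.12%), and 31 were called the same way with both. Their median response was 0.67 log2 units to MO1 and 0.55 to MO2. The edgeR test called 0 differences in the list, with 7 at an unadjusted p under 0.05 (13%, against 13.1% of all genes), and DESeq2 called 0. At an unadjusted p under 0.05, 1 member was lower with MO2, and DESeq2 called 0 lower there. The summed level was 1651 to 2261 CPM with MO1, 1162 to 1508 CPM with 10 ng cMO, 1579 to 2062 CPM with MO2 and 1125 to 1455 CPM with 20 ng cMO, so that the libraries of each oligo lay above those of their own control. Without the replicate block the counts that rose were 3 with MO1 and 0 with MO2.

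BMP genes, the pathway through which ERFE is known to act, had 18 of 66 tested members higher and 1 lower with MO1 (27.3% and 1.52%, against 5.23% and 7.03% of all genes), and 3 higher and 2 lower with MO2 (4.55% and 3.03%, against 1.94% and 3.12%). The difference was called for 0 members in edgeR and 0 in DESeq2, 14 had an unadjusted p under 0.05 (21.2%, against 13.1% of all genes), and the median difference was 0.09. The BMP target gene id3.L had a difference of 0.30 ± 0.10 and msx1.L one of 0.31 ± 0.10 (edgeR QL adjusted p = 0.23 and 0.23), chosen after their values were seen. The same test called 0 of 49 red cell and haem genes, of which 11 fell with each oligo (22.4%, against 7.03% of all genes with MO1 and 3.12% with MO2), and 0 of 37 iron handling genes. Of the 49 red cell genes, the difference was above 0 for 37 and below 0 for 12, with a median of 0.14. Of the 37 iron genes, it was above 0 for 16 and below 0 for 21, with a median of -0.04. At an unadjusted p under 0.05 there were 5 red cell and 3 iron genes (10.2% and 8.11%, against 13.1% of all genes). DESeq2 called 1 of the red cell and 0 of the iron genes. The edgeR test called 0 of 62 interferon and innate immune genes, with 2 at an unadjusted p under 0.05 (3.23%), and 0 of 73 genes of blood vessel endothelium, with 10 (13.7%), while DESeq2 called 1 in each of these lists. Of the 73 endothelium genes, 20 fell and 6 rose with MO1 (27.4% and 8.22%, against 7.03% and 5.23% of all genes). With MO2, 6 fell and 3 rose (8.22% and 4.11%, against 3.12% and 1.94%). Their difference was below 0 for 49 and above 0 for 24. Without the replicate block no BMP, red cell, iron or innate immune gene was called with either oligo. An adjusted p over the threshold does not show that the responses were alike: over all genes the 95% interval of a difference had a median half-width of 0.37 log2 units.

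**Figure D4:**
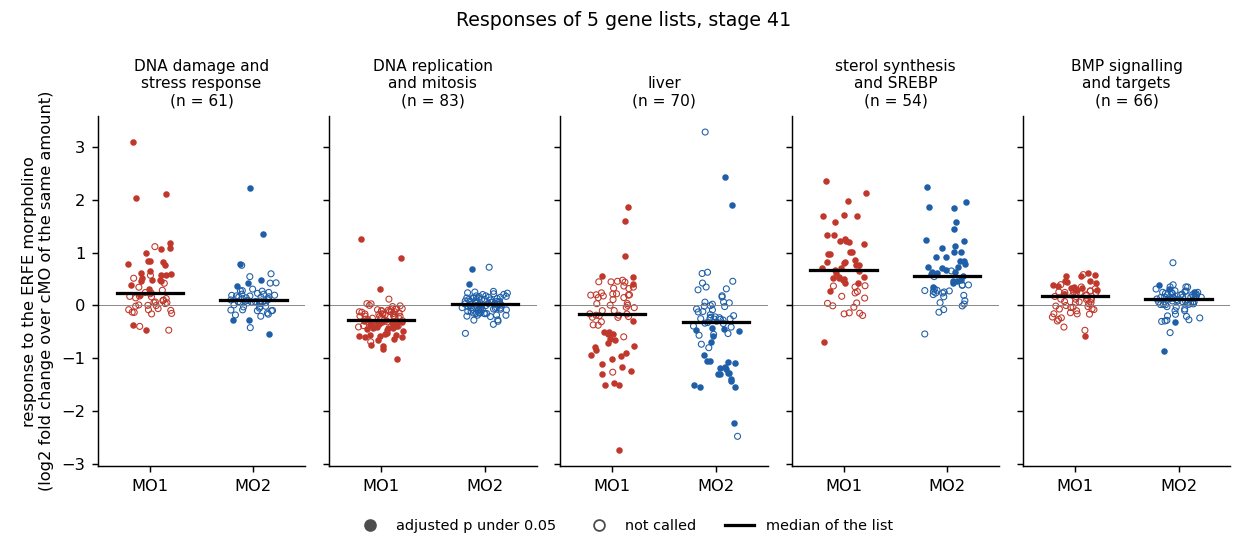
Log2 response of each tested member of 5 gene lists to MO1 and to MO2 at stage 41 (y axis), with filled points for members called at an adjusted p under 0.05 and a bar at the list's median. The list of replication and mitosis is shifted with MO1 and lies near 0 with MO2 (medians -0.27 and 0.02). The list of DNA damage and stress response is shifted with MO1 and less so with MO2 (0.25 and 0.10), and the sterol list is shifted with both (0.67 and 0.55).

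The other homeolog of a called gene often moved the same way without passing. X. laevis carries most genes as an L and an S copy, whose reads can be assigned to the wrong copy. A difference between copies is therefore uncertain, and so is agreement between them. Of 60 called genes with a symbol, 44 had a tested partner copy, of which 35 had a difference of the same sign. Among those 44, 21 had an unadjusted p under 0.05 (against 13.1% of all genes tested) and 2 were called (against 0.25%). The 2 are the copies of mdm2, each counted as the partner of the other. In rbp2.S the difference was 1.56 ± 0.35 (edgeR QL adjusted p = 0.088), in mki67.S -0.59 ± 0.21 (adjusted p = 0.25) and in gatm.S -0.38 ± 0.13 (adjusted p = 0.25). Differences in tcn2.L, cdc25c.S, dscaml1.S and man2a2.L were near 0, as given above. In nmrk2.S, with a mean of 204 CPM over the 4 groups, the difference was 0.12 ± 0.10 (edgeR QL adjusted p = 0.68), against -0.50 in nmrk2.L.

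The earlier stages give the same contrast in libraries that were not used to call the 77 genes. At stage 37/38, fitted alone with its own 12 libraries, 239 of 30329 genes were called (0.788%). Of the 77, 71 had the same sign there, against 59.5% of all genes, and 29 were called. Called there were 19 of the 40 genes that rose with MO1 and did not pass with MO2 or passed in the opposite direction. Of the 21 genes that fell with MO2 and did not pass with MO1, or passed in the opposite direction, 2 were called there. The difference at stage 37/38 was 1.72 for mdm2.L, 2.86 for eda2r.L, 2.55 for parp3.L and 4.91 for rpl3l.S, all called (edgeR QL adjusted p = 0.003, 0.0019, 0.0037 and 0.017). It was 1.05 for plg.S and -0.74 for cdc6.L, also called (adjusted p = 0.021 and 0.0093). At stage 35/36 the result rested on 1 library. With all 12 libraries of that stage, 0 of 30164 genes were called in edgeR (0%), with 1559 at an unadjusted p under 0.05, and 64 of the 77 kept their sign (58.0% over all genes tested). MO2 library 1 of that stage differed from MO2 library 3 by a chi-square per gene of 39.1, the highest between libraries of 1 group there, against at most 25.9 within the other 3 groups. Every library of that stage was closer to one of another group than to its own, and the nearest to MO2 library 1 was MO1 library 2, at 18.3. Without MO2 library 1, 41 of 30489 genes were called (0.134%), 74 of the 77 kept their sign (63.6% over all genes tested) and 13 were called.

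Other genes of the 77 were not called at stage 37/38. The difference there was -0.06 for mki67.L, 0.02 for myocd.S, -0.01 for eva1b.L, -0.10 for pmp2.S and 0.70 for fabp1.S, none called (edgeR QL adjusted p = 0.9, 0.99, 0.99, 0.85 and 0.56). It was 1.25 for fabp2.L, 0.88 for rbp2.L and 0.50 for serpina1.L, also not called (adjusted p = 0.12, 0.27 and 0.32). The change of the difference between stage 41 and stage 37/38, tested itself over 24 libraries and 31378 genes, was called for 0 genes in edgeR (0%), with 1893 at an unadjusted p under 0.05. The smallest adjusted p among the 77 was 0.81, so the difference at stage 41 was not shown to differ from that at stage 37/38 for any of them.

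**Figure D5:**
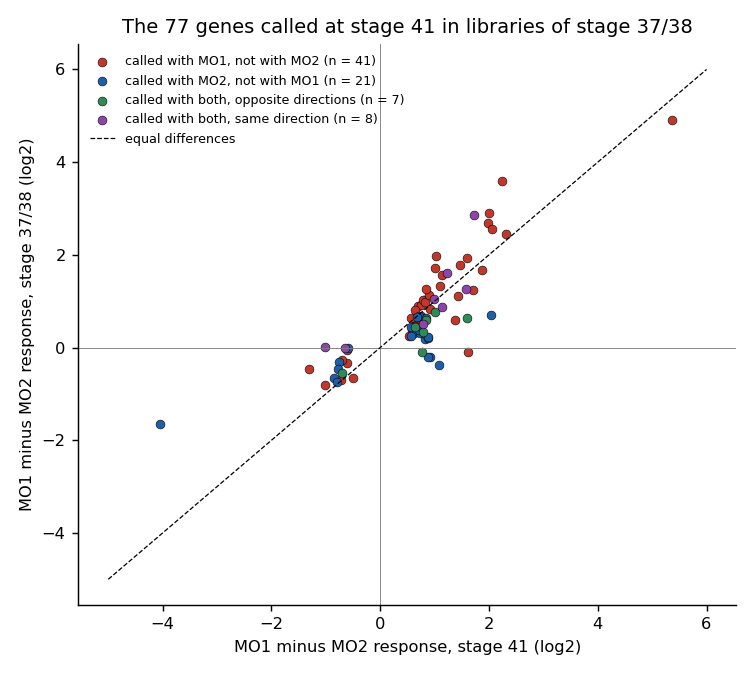
MO1 response minus MO2 response in log2 units at stage 41 (x axis) and in the separate libraries of stage 37/38 (y axis) for the 77 genes called at stage 41, coloured by the oligo whose own response was called at stage 41, with a dashed line at equal differences. Of the 77, 71 have the same sign at both stages, and most genes called with MO1 alone lie near the line.

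Some genes with a called difference also change in normal development. In uninjected embryos, 19.5% of 29426 tested genes rose and 19.3% fell between stages 37/38 and 41. Of the 21 genes that fell with MO2 and either did not pass with MO1 or passed there in the opposite direction, 12 rose in that interval (57.1%) and 3 fell (14.3%). Among those that rose were fabp1.S by 2.17 and ephx2.L by 0.70 log2 units. Of the 8 genes that fell with MO1 and either did not pass with MO2 or passed there in the opposite direction, 5 fell in that interval (62.5%), with mki67.L at -1.42 and mcm5.S at -0.81. Of 6 tested genes that rose with MO2 and either did not pass with MO1 or passed there in the opposite direction, 5 fell in that interval (83.3%) and 0 rose (0%). Of 39 tested genes that rose with MO1 and either did not pass with MO2 or passed there in the opposite direction, 10 rose (25.6%) and 4 fell (10.3%), with tcn2.S at 0.61 and oit3.S at 0.76 log2 units among those that rose. The change of eda2r.L, which rose with both oligos, was 0.12 log2 units and was not called.

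A stage score was set beside the difference. It is the slope of a library's log2 CPM, relative to the uninjected mean of stage 37/38, on the uninjected change between stages 37/38 and 41, over the 3000 genes called there with a change over 1 log2 unit. Uninjected libraries scored -0.065, 0.0414 and 0.0236 at stage 37/38 and 0.65, 0.988 and 0.976 at stage 41. The score was 0.499, 0.775 and 0.716 with MO1, against 0.523, 0.909 and 0.883 with 10 ng cMO. It was 0.417, 0.698 and 0.740 with MO2, against 0.512, 0.881 and 0.966 with 20 ng cMO. Replicate 1 was the lowest of every stage 41 group, the uninjected one included. Libraries of both oligos scored below their own control in every replicate number, and MO2 was further below by 0.0717, 0.0487 and 0.0589. The part of this shift in the differences of single genes was not tested.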

How the data were processed

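RNA of whole embryos was extracted with Trizol and sequenced as TruSeq RNA v2 libraries, per the labels' protocols. Each deposited file holds the read counts of 1 library by gene. The submitters' processing notes name bcl2fastq 2.17.1.14, FastQC 0.11.5, STAR 2.5.2a, featureCounts 1.5.0-p1 and DESeq2 1.8.2. Genome build, annotation and treatment of multimapping reads: not given in the sources used here. With this kit strand is not marked, and overlapping or antisense genes cannot be told apart.

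The files list 45038 genes. In R 4.3.3, the filterByExpr step of edgeR 4.0.16, with a minimum count of 10, kept 30767 genes (22324 with a symbol, 99.95% of counts). TMM factors were 0.927 to 1.04. Libraries were fitted by the quasi-likelihood model with terms for group and replicate number over the 12 libraries (biological coefficient of variation 0.103, 6 residual degrees of freedom). The contrast is (MO1 minus 10 ng cMO) minus (MO2 minus 20 ng cMO), two-sided, with p-values adjusted over all genes. Each standard error is the size of the log2 value over the square root of F, and intervals are 95%. Counting error alone is covered by the floor of 3 counts.

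The labels do not say what a replicate number shares. The deviations from the group means of libraries sharing a number were correlated above 0.1 for 18 of 18 pairs (0.531 to 0.843, against at most 0.205 for different numbers), so the numbers were taken to pair the libraries. Numbers 1, 2 and 3 also go with sequencing lanes 2, 4 and 5, except 10 ng cMO library 2, run on lane 3. No libraries of a group agreed within sampling noise.

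Named genes are the targeted gene, up to 8 called genes with a symbol and at least 1 CPM for each direction in which 1 oligo alone, or against the other, was called, up to 4 called the same way with both, and up to 3 called members of each list. Members of the comparison and the 25 gene lists were chosen with earlier results of these data known. Some genes that the rule names or the lists held are not reported here. Gene lists are described by counts and medians without a test. Alternatives were no block, lane in place of the replicate, RLE scaling, no gene filter, DESeq2 1.42.0, fits to 15, 45 and 44 libraries, and leaving out libraries.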

Additional observations from a re-analysis of the deposited data

How the results depend on the processing

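The call rests on the replicate block and on few libraries. The count of genes with a called difference was 77 in the fit with the replicate block, 0 without it, 8 with lane in place of the replicate number, 78 with RLE scaling, 170 without a gene filter, 392 in DESeq2, 136 with all 15 stage 41 libraries, 92 with all 45 libraries (50 higher and 42 lower) and 402 with 44 libraries, leaving out MO2 library 1 of stage 35/36 (158 higher and 244 lower). It was 8 to 76 with a single library left out and 0 to 6 with a replicate number left out. The cause was not tested, and the fits without libraries have fewer samples. Of the 12 libraries, 10 ng cMO library 2 alone was run on lane 3, so the lane term fits that library exactly. The lane fit therefore cannot be told apart from leaving that library out, which also gave 8 calls. For MO1 the count of 3771 became 57 without the block and 1575 with lane, and 1207 to 4010 with libraries left out (1585 to 4010 with a single one). For MO2 the 1557 became 7 without the block and 2363 with 44 libraries, and 340 to 2070 with libraries left out (615 to 2070 with a single one). Between MO1 and MO2 libraries directly the 1397 became 6 without the block, 927 with lane and 2521 with 44 libraries, and 191 to 1486 with libraries left out (415 to 1486 with a single one). Between the 2 amounts of cMO the count was 0, or 1 in DESeq2, and 0 to 1 with libraries left out. Of 827 values of named genes under these settings, 361 kept their side of the threshold, 466 kept their direction but no longer passed, and 0 reversed. The settings reuse the libraries by which the called genes were picked, so a kept direction is no separate evidence. With 3 libraries per group at this depth, the median half-width of the unadjusted 95% interval was 0.37 log2 units. The adjusted threshold is stricter than that interval, and the smallest called difference was 0.50 log2 units. Differences above 0.37 log2 units can therefore also have gone uncalled.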
